A study of Mus musculus with 8 samples.

Results

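The cytochrome P450 genes of families 1 to 3 were examined in the liver and subcutaneous fat of mice that lack MKRN1, an E3 ubiquitin ligase, and of WT littermates. Members were taken by symbol (Cyp1, Cyp2 or Cyp3, then a subfamily letter and a number), which gave 61 genes of 24532 in the annotation, 2 of them annotated pseudogenes (Cyp2c53-ps and Cyp2d37-ps). All 8 libraries came from male C57BL/6 mice. By the labels the mice were aged 24 weeks and had been fed an HFD for 19 weeks from the age of 6 weeks. These label values do not quite add up, and the methods of the paper give a shorter HFD. WT and MKRN1-null mice gave 2 libraries each in liver and 2 each in fat. The MKRN1-null allele was carried in every tissue, and the animals had been backcrossed to C57BL/6. The labels number the liver and fat libraries of a genotype alike, which may mark shared animals though no source used here states it. With 2 libraries per genotype a p measures only the spread between these samples.

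Poly(A) RNA was sequenced, and the level of a transcript was given in FPKM, its fragments scaled to transcript length and to the depth of the library. The aligned bases came to 6.053 to 7.457 Gb in the liver libraries and 5.723 to 9.235 Gb in the fat libraries. Testing in a tissue required 1 FPKM or more in 2 or more of its 4 libraries, which 38 of the 61 members reached in liver and 8 in fat. Mkrn1 itself checked the genotype, with 9.42 and 10.1 FPKM in WT livers against 2.86 and 2.21 in MKRN1-null livers, and 16.8 and 19.3 in WT fat against 4.58 and 2.90 in MKRN1-null fat. The labelled tissue was checked by its markers. Alb, the hepatocyte gene of serum albumin, stood at 33787 to 42772 FPKM in the livers and at 2.77 to 16.5 in fat, and the summed FPKM of 5 adipocyte genes was 3665 to 9198 in fat. MKRN1-null fat replicate 2 stood apart, with a summed FPKM of 59583 over 5 skeletal muscle genes against 27.8 to 149 in the other fat libraries.

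Cytochrome P450 enzymes of these families sit in the endoplasmic reticulum and add an oxygen atom to drugs, pollutants, steroids, bile acids and polyunsaturated fatty acids, with electrons passed to them by the reductase Por and by cytochrome b5. Hepatocytes express most of them, many in the zone around the central vein, and the genes lie in clusters of near-identical copies. Their transcription is set by receptors that sense foreign compounds (AHR for the Cyp1 genes, CAR for the Cyp2b and Cyp2c genes, PXR for the Cyp3a genes), by liver factors such as HNF4α, and by the sex-specific pattern of growth hormone.

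In liver the members moved in both directions, also within some subfamilies, though no subfamily held calls in both directions. Of the 38 tested, 15 were higher and 4 lower in MKRN1-null mice by limma (adjusted p under 0.05), and 19 passed in neither direction. Over all 10822 genes tested in liver, 2.51% were higher and 16.9% lower by the same rule. The numerical limits of the study were also used (p up to 0.05, log2 fold change of 0.58 or more in size). Here they were set on the unadjusted p of limma, whereas the paper set them on combined p-values from permutations of read counts. At these study thresholds 15 members were higher and 7 lower, where all tested genes gave 2.25% and 13.4%. Both MKRN1-null libraries stood above both WT libraries for 25 members and below them for 8, against 11.8% and 57.5% of all tested genes. The median log2 fold change of the tested members was 0.36, and that of all tested genes was −0.175.

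The median of all liver genes depends on the scale. Median-of-ratios scaling moved it by 0.179 to 0.004, and the median of the tested members was then 0.57. On that scale 18 members were higher and 3 lower. The shares of all tested genes called on that scale were not counted, so these 2 counts cannot be told from the general shift. The calls rested on both MKRN1-null livers, and far fewer of all tested liver genes were called too when either was left out. Without MKRN1-null replicate 2 there were 0 members higher and 2 lower at the adjusted threshold and 12 higher and 4 lower at the study thresholds. Without MKRN1-null replicate 1 there were 5 higher and 2 lower. Leaving out WT replicate 2 raised the count of lower members to 8. Cyp3a11 and Cyp3a44 alone stayed past the adjusted threshold whichever library was left out.

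**Figure D1:**
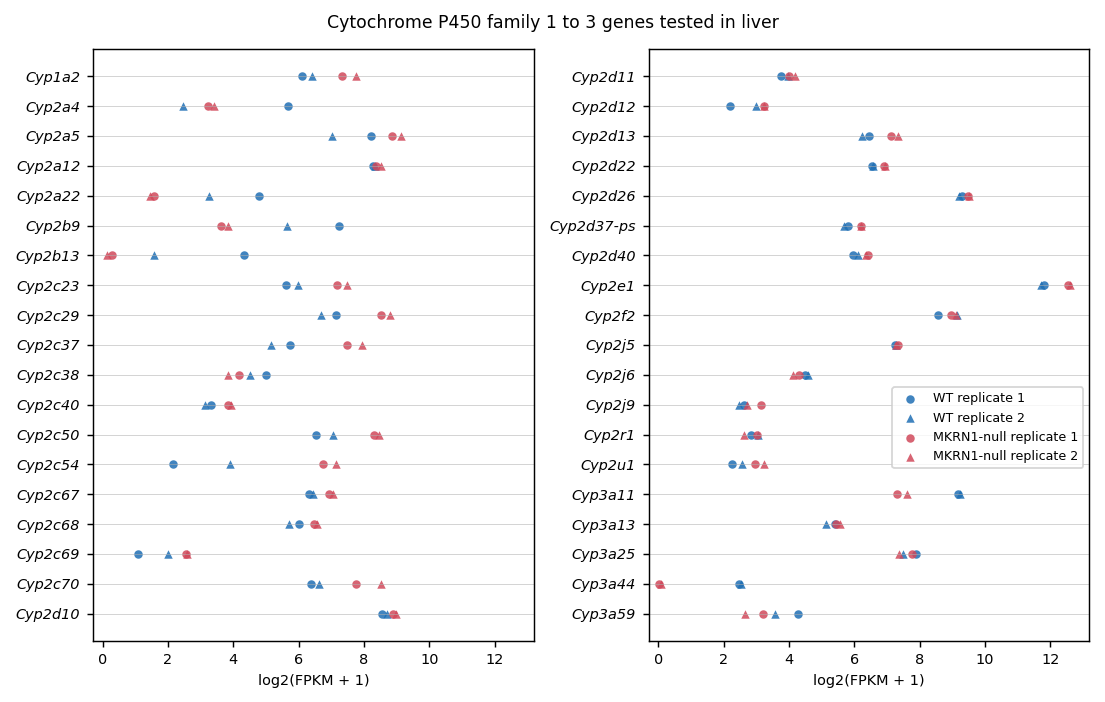
Level of each of the 38 tested members in the 4 liver libraries, as log2(FPKM + 1), with 1 point per library (circles for replicate 1, triangles for replicate 2). The MKRN1-null points lie to the right of the WT points for most Cyp2c genes and to the left for Cyp2a22, Cyp2b9, Cyp2b13, Cyp3a11 and Cyp3a44.

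Summed by subfamily, Cyp2c and Cyp1a stood higher in MKRN1-null livers and Cyp2b and Cyp3a lower, though single genes made up much of some sums. The sums are given as values with no test, since near-identical members share reads. For the 16 Cyp2c genes the summed FPKM was 605 and 614 in WT livers and 1569 and 1984 in MKRN1-null livers, a ratio of 2.92. The Cyp1a sum, nearly all of it Cyp1a2, was 67.6 and 83.5 in WT against 158 and 216 in MKRN1-null livers. No library of one genotype overlapped the other in either subfamily.

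The 9 Cyp3a genes summed to 884 and 830 FPKM in WT but to 424 and 408 in MKRN1-null livers, a ratio of 0.485. Without Cyp3a11 the other 8 summed to 301 and 229 against 267 and 215 FPKM, so that the genotypes overlapped. The 5 Cyp2b genes summed to 168 and 51.3 in WT but to 11.4 and 13.5 in MKRN1-null livers, and the WT livers lay far from each other. Most of that sum was Cyp2b9, and the other 4 summed to 19.2 and 2.18 against 0.247 and 0.136 FPKM. Cyp2a summed to 682 and 463 in WT against 799 and 936 in MKRN1-null livers, though its genes moved in both directions. Cyp2d summed to 1321 and 1313 against 1628 and 1688, while Cyp2j stood at 178 and 183 against 188 and 175. Over all 61 members the sum was 7889 and 7507 FPKM in WT against 11207 and 12169 in MKRN1-null livers, which is 1.46% and 1.35% against 1.95% and 2.12% of the summed FPKM of all genes.

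**Figure D2:**
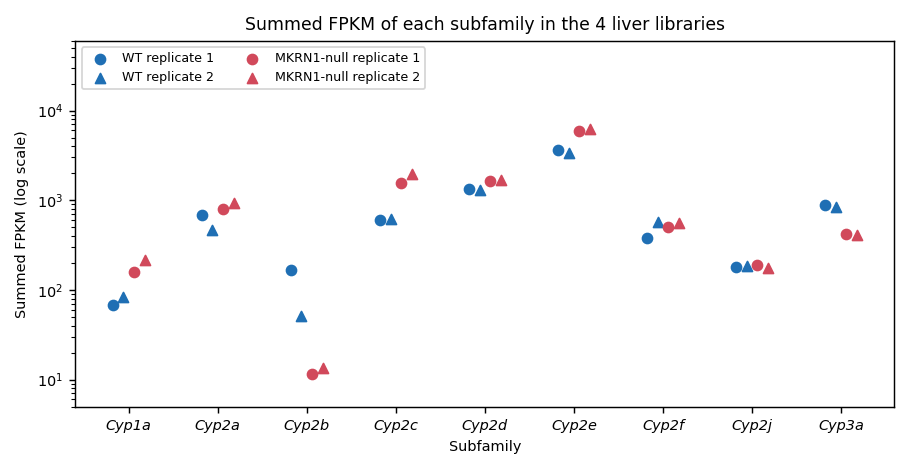
Summed FPKM of 9 subfamilies in each liver library, on a logarithmic axis, with 1 point per library. Cyp2c lies at 605 and 614 in WT and at 1569 and 1984 in MKRN1-null livers, Cyp2b spreads from 51.3 to 168 in WT, and the 4 Cyp2j points lie together.

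Cyp2e1 (Entrez 13106, mm10 chromosome 7, 140763832 to 140774977, plus strand), which oxidises ethanol, acetone and fatty acids, was the most abundant member in every library of both tissues. Its FPKM was 3597 and 3390 in WT livers and 5917 and 6178 in MKRN1-null livers, so that the groups lay well apart. It rose by 0.79 on the log2 scale (SE 0.11, adjusted p = 0.0190). The call was lost without MKRN1-null replicate 2 (adjusted p = 0.106) or replicate 1 (0.0671), without the filter (0.0833), with all 8 libraries in one fit (0.301) and under quantile normalization, where the log2 fold change was 0.39 (0.165). Cyp2e1 held 45.6% and 45.2% of the members' summed FPKM in WT against 52.8% and 50.8% in MKRN1-null livers.

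After Cyp2e1 the order of mean levels in WT liver was Cyp2d26 (612 FPKM), Cyp3a11 (592), Cyp2f2 (471), Cyp2d10 (396), Cyp2a12 (316), Cyp2a5 (212), Cyp3a25 (207) and Cyp2j5 (153). Neighbours in this order often could not be separated. Cyp2d26, at 635 and 590 FPKM, overlapped Cyp3a11, at 583 and 601, and the WT libraries of Cyp2f2, at 376 and 566, spanned Cyp2d10, at 376 and 416. The first 9 genes together held 83.8% of the members' FPKM in WT liver.

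Cyp1a2 (Entrez 13077, chromosome 9, 57676937 to 57683655, minus strand), which metabolises caffeine and aromatic amines and is a target of AHR, was higher in MKRN1-null livers. Its FPKM was 67.1 and 83.1 in WT against 158 and 216 in MKRN1-null livers, a rise of 1.3 on the log2 scale (SE 0.19, adjusted p = 0.0203). The groups did not overlap, though the adjusted p was 0.0862 without MKRN1-null replicate 2 and 0.0604 without WT replicate 1. Its neighbour Cyp1a1, the AHR target that is classically induced by dioxin, was under the filter, at 0.451 and 0.454 FPKM in WT against 0.324 and 0.382 in MKRN1-null livers. Cyp1b1, the member of family 1 that is mainly extrahepatic, was also under the filter, at 0.593 and 0.448 FPKM in WT against 0.0685 and 0.109 in MKRN1-null livers.

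The Cyp2c subfamily, whose enzymes epoxidise and hydroxylate arachidonic and linoleic acid, gave the most calls. Of 11 Cyp2c genes tested in liver, 9 were higher and 0 lower, against 2.51% and 16.9% of all tested liver genes. The other 2 were Cyp2c69 and Cyp2c38. Cyp2c54 (Entrez 404195) had 3.46 and 13.8 FPKM in WT against 106 and 141 in MKRN1-null livers, a rise of 3.93 on the log2 scale (SE 0.58, adjusted p = 0.0204). The WT livers differed widely from each other, and both lay far below the MKRN1-null livers. The estimate ran from 3.06 to 4.79 when single libraries were left out, and the adjusted p was 0.106 without MKRN1-null replicate 2 and 0.0631 without replicate 1.

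Its neighbours on either side moved the same way. Cyp2c37 (Entrez 13096) had 51.9 and 34.4 FPKM in WT against 176 and 247 in MKRN1-null livers (log2 fold change 2.27, SE 0.25, adjusted p = 0.0147). Cyp2c50 had 91.3 and 133 FPKM in WT against 317 and 351 in MKRN1-null livers (log2 fold change 1.59, SE 0.19, adjusted p = 0.0163). Next along the chromosome, Cyp2c70 (Entrez 226105), which hydroxylates bile acids to muricholic acids in mice, had 82.5 and 97.6 FPKM in WT against 216 and 367 in MKRN1-null livers (log2 fold change 1.64, SE 0.27, adjusted p = 0.0246). For none of the 3 did the genotypes overlap. Without MKRN1-null replicate 2 the adjusted p was 0.0731 for Cyp2c37, 0.0904 for Cyp2c50 and 0.0664 for Cyp2c70. Cyp2c50 also lost its call without MKRN1-null replicate 1 (0.0528), and Cyp2c70 without WT replicate 1 (0.0782) or WT replicate 2 (0.0503).

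At the other end of the cluster Cyp2c29 (Entrez 13095), an abundant epoxygenase gene that CAR activates, had 141 and 101 FPKM in WT against 367 and 441 in MKRN1-null livers (log2 fold change 1.74, SE 0.19, adjusted p = 0.0147). Cyp2c23 (Entrez 226143), which also bears the name Cyp2c44 and encodes an arachidonic acid epoxygenase, lies several megabases from the cluster on chromosome 19. It had 48.2 and 62.1 FPKM in WT against 142 and 179 in MKRN1-null livers (log2 fold change 1.53, SE 0.17, adjusted p = 0.0147). Without MKRN1-null replicate 2 the adjusted p was 0.0770 for Cyp2c29 and 0.0768 for Cyp2c23, and each stayed under the threshold when any other liver library was left out.

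Differences were smaller in the block of Cyp2c67, Cyp2c68, Cyp2c40 and Cyp2c69. Cyp2c67 had 78.7 and 86.4 FPKM in WT against 120 and 133 in MKRN1-null livers (log2 fold change 0.61, SE 0.10, adjusted p = 0.0237). Cyp2c68 had 63.8 and 51.0 in WT against 88.4 and 92.7 in MKRN1-null livers (0.66, SE 0.13, adjusted p = 0.0334). Cyp2c40, which hydroxylates arachidonic acid, had 9.0 and 7.75 in WT against 13.4 and 14.3 in MKRN1-null livers (0.66, SE 0.10, adjusted p = 0.0230). Cyp2c69 did not pass, with 1.10 and 3.01 FPKM in WT against 4.80 and 5.04 in MKRN1-null livers (log2 fold change 1.03). These values share reads. Windows of 101 bases, the read length, were taken along the GENCODE transcript with the longest coding sequence, untranslated parts included. In Cyp2c40 43.7% of them occur in another gene as well, and the shares are 36.0% for Cyp2c69, 23.3% for Cyp2c67 and 19.6% for Cyp2c68. All 3 calls were lost without MKRN1-null replicate 2 (adjusted p of 0.131 to 0.160) and without replicate 1 (0.0691 to 0.106), and that of Cyp2c67 also without WT replicate 1 (0.0647). Those of Cyp2c67 and Cyp2c68 were lost with all 8 libraries in one fit as well (0.0714 and 0.0800), and that of Cyp2c68 without the filter (0.0533). Cyp2c69 passed without WT replicate 2 (0.0147).

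Cyp2c38 stood against the other tested genes of its subfamily, with 31.2 and 21.7 FPKM in WT against 16.9 and 13.4 in MKRN1-null livers. Its log2 fold change was −0.75 and did not pass the adjusted threshold (adjusted p = 0.0646), though it did with TPM (0.0487) and without WT replicate 2 (0.0371). Under the filter, Cyp2c39 (1.61 and 0.952 against 0.87 and 0.486 FPKM) and Cyp2c55 (0.822 and 0.88 against 0.777 and 0.423) were also lower in both MKRN1-null livers than in both WT livers. Cyp2c29 and Cyp2c38 are 89.1% identical over their coding sequences, and neither shares a window of 101 bases with another gene. Cyp2c37, Cyp2c50 and Cyp2c54 are 95.1% to 96.1% identical to each other and share 4.52%, 9.17% and 7.41% of their windows with other genes.

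**Figure D3:**
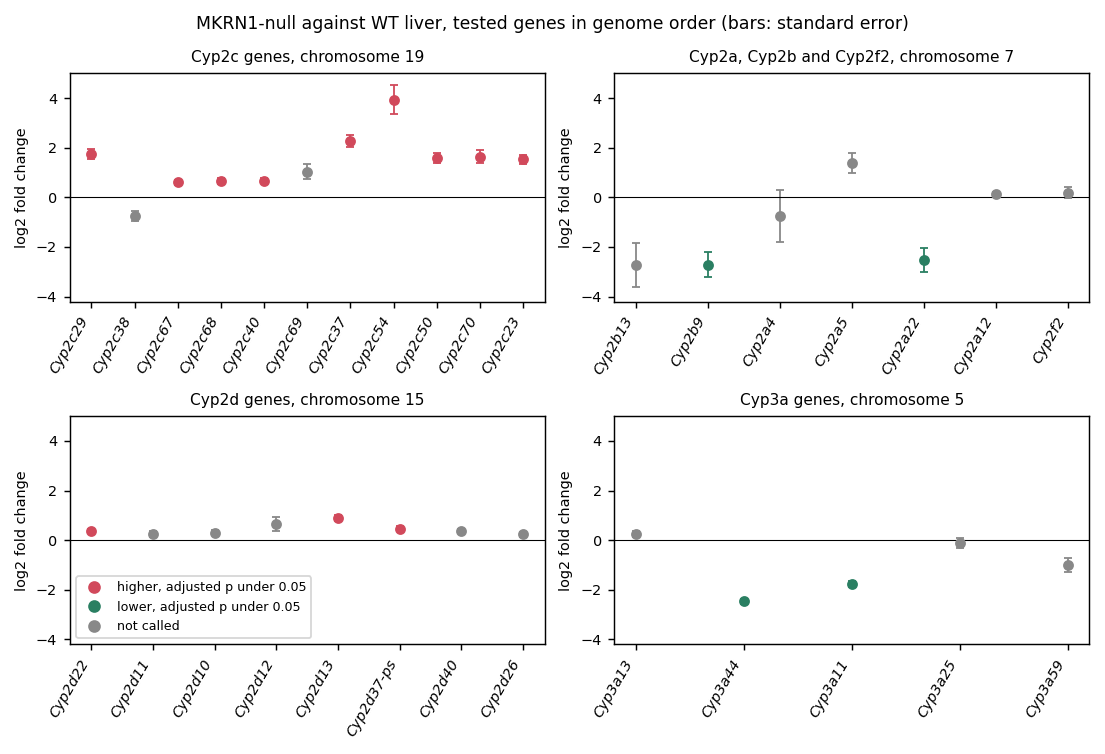
Log2 fold change of MKRN1-null against WT liver for the tested genes of 4 clusters in their order along the chromosome, not to distance, with SE from limma as bars and colours for the call at an adjusted p under 0.05. In the Cyp2c panel 9 of 11 genes are called higher, with the highest point at Cyp2c54, and in the Cyp3a panel Cyp3a44 and Cyp3a11 are called lower beside uncalled Cyp3a25 and Cyp3a59.

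The Cyp3a subfamily holds the main drug and steroid hydroxylases of liver. Of its 5 tested genes 2 were lower and 0 higher, against 16.9% and 2.51% of all tested liver genes. Of these 2, Cyp3a44 passed the filter only through the WT livers and so could enter only as lower. Cyp3a11 (Entrez 13112, chromosome 5, 145854607 to 145879854, minus strand), the chief PXR target in mice and the third most abundant member of WT liver, had 583 and 601 FPKM in WT against 157 and 193 in MKRN1-null livers. It fell by 1.76 on the log2 scale (SE 0.12, adjusted p = 0.00914), and WT was 3.38-fold higher than MKRN1-null on the FPKM scale. Its adjusted p stayed between 0.0180 and 0.0300 when single libraries were left out. Only 0.223% of its windows of 101 bases occur in another gene.

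Cyp3a44 (Entrez 337924), the neighbour of Cyp3a11 and a gene known as female-predominant, had 4.52 and 4.83 FPKM in WT against 0.0114 and 0.0532 in MKRN1-null livers. Its log2 fold change, which the pseudocount of 1 shrinks at such levels, was −2.46 (SE 0.10, adjusted p = 0.00365), and its adjusted p stayed between 0.0107 and 0.0269 with single libraries left out. The MKRN1-null livers held about 1 and 3 read pairs of it, against about 266 and 350 in WT. Cyp3a59 had 18.3 and 11.0 FPKM in WT against 8.23 and 5.29 in MKRN1-null livers, without overlap, and its log2 fold change of −1.0 did not pass (adjusted p = 0.0750, but 0.0492 without WT replicate 2). Cyp3a25 (237 and 178 against 216 and 163 FPKM) overlapped between genotypes, and its log2 fold change of −0.13 turned to 0.08 under median-of-ratios scaling. Cyp3a13 had 41.1 and 34.1 FPKM in WT against 42.5 and 46.5 in MKRN1-null livers (log2 fold change 0.24). Cyp3a11 and Cyp3a25 are 76.1% identical over the coding sequence, whereas Cyp3a11 and Cyp3a44 are 94.9% identical.

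The promoters of members that moved together are shown for comparison. They are the 250 bases before the annotated start from RefSeq GRCm38.p6, the build of mm10, 5′ to 3′ on the strand of the gene. Cyp2c37 and Cyp2c50 are risen genes on either side of Cyp2c54, Cyp2c70 is the risen bile acid gene beside Cyp2c50, and Cyp3a11 and Cyp3a44 are the pair of fallen neighbours. Capitals mark matches on either strand. The motifs were CAAAGTCCA, a form of the HNF4 site, the half-site AGGTCA of nuclear receptors, and the core promoter motif TATAAA.
Cyp2c37, chr19:39992174-39992423, plus strand: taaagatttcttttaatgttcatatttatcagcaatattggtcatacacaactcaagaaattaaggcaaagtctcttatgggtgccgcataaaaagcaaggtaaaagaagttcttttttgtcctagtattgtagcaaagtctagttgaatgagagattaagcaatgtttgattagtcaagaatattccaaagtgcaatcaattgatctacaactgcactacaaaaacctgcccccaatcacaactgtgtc
Cyp2c50, chr19:40089429-40089678, plus strand: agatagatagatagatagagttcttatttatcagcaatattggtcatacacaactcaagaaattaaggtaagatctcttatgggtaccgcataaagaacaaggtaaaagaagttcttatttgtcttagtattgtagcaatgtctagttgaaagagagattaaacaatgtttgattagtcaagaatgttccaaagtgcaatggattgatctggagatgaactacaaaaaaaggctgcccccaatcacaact
Cyp2c70, chr19:40187287-40187536, minus strand: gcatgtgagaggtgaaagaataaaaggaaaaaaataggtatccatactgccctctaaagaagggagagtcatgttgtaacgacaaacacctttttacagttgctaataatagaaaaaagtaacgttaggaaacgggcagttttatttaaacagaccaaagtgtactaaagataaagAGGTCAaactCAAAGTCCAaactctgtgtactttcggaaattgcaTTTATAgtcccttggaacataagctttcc
Cyp3a11, chr5:145879855-145880104, minus strand: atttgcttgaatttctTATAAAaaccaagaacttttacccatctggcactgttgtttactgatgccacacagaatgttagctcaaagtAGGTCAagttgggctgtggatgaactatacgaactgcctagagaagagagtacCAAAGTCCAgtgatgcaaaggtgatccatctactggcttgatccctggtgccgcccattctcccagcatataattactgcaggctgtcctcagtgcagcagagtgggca
Cyp3a44, chr5:145805875-145806124, minus strand: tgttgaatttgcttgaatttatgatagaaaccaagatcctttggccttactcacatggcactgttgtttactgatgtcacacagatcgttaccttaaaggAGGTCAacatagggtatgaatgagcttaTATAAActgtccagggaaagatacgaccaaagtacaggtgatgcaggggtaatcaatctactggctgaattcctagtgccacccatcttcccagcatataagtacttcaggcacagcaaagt

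The promoters of Cyp2c37 and Cyp2c50 were 84.3% identical, and neither held any of these motifs. Those of Cyp3a11 and Cyp3a44 were 71.7% identical, and both held TATAAA and AGGTCA, while CAAAGTCCA was found in that of Cyp3a11 alone of the pair. RefSeq promoters were found for 51 of the 61 members. CAAAGTCCA was present in 10 of the 51 (19.6%), against 0.384% of 32851 promoters of all genes. The 10 were Cyp2c40, Cyp2c65, Cyp2c67, Cyp2c68, Cyp2c69, Cyp2c70, Cyp3a11, Cyp3a16, Cyp3a41a and Cyp3a41b, many of them copies of one another, and they include genes that were higher, lower and under the filter. TATAAA was present in 24 members (47.1%, against 12.4% of all promoters) and AGGTCA in 15 (29.4%, against 14.0%). GCGTG, the core bound by AHR, was present in 8 (15.7%, against 28.2%), and TTCNNNGAA, a site of STAT factors, in 2 (3.92%, against 7.02%). All motifs were sought on both strands, and the match of a motif does not show that a factor binds.

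The Cyp2b and Cyp2a genes, neighbours on chromosome 7, included several that differed widely between the WT livers. Cyp2b9 (Entrez 13094), a gene known as female-predominant, had 149 and 49.2 FPKM in WT against 11.2 and 13.4 in MKRN1-null livers, and fell by 2.71 on the log2 scale (SE 0.52, adjusted p = 0.0323). Cyp2b13, another such gene, had 18.9 and 1.98 FPKM in WT against 0.213 and 0.103 in MKRN1-null livers. Its log2 fold change of −2.73 did not pass (adjusted p = 0.0918), though it did without WT replicate 2 (0.00884) or WT replicate 1 (0.0300) and with a pseudocount of 0.1 (0.0455). Cyp2b10, the classical CAR target, was under the filter, at 0.316 and 0.202 FPKM in WT against 0.0342 and 0.0330 in MKRN1-null livers.

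Cyp2a22 (Entrez 233005) had 26.7 and 8.62 FPKM in WT against 1.94 and 1.73 in MKRN1-null livers, and fell by 2.53 on the log2 scale (SE 0.50, adjusted p = 0.0347). For Cyp2a22 and Cyp2b9 the adjusted p was 0.146 and 0.129 without MKRN1-null replicate 2, and 0.104 and 0.107 without replicate 1. It was 0.0617 and 0.0581 without the filter and 0.0597 and 0.0592 under quantile normalization, and for Cyp2a22 it was 0.0506 under median-of-ratios scaling. Cyp2a12, a bile acid hydroxylase gene whose coding sequence is 97.0% identical to that of Cyp2a22, was at 309 and 323 FPKM in WT against 328 and 363 in MKRN1-null livers (log2 fold change 0.13). Cyp2a5, the coumarin hydroxylase, had 296 and 128 in WT against 460 and 562 in MKRN1-null livers (log2 fold change 1.38, adjusted p = 0.0748). Without WT replicate 1 its adjusted p was 0.0292.

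Cyp2a4, a steroid hydroxylase gene known as female-predominant, had 49.9 and 4.55 FPKM in WT against 8.26 and 9.70 in MKRN1-null livers, so that the genotypes overlapped. Its log2 fold change was −0.76 (adjusted p = 0.624). It was 0.84 without WT replicate 1 (adjusted p = 0.0489) and −2.35 without WT replicate 2 (0.0128), so that its direction turned with the WT library used. Cyp2a4 and Cyp2a5 are 98.5% identical over 1485 coding bases, with 23 differences. Of the windows of 101 bases in their transcripts, 10.9% for Cyp2a4 and 14.0% for Cyp2a5 occur in another gene. Reads from such stretches could not be assigned with certainty. Bases 580 to 669 of the coding sequences, counted from the start codon, are the stretch of 90 bases with the most differences. They hold 5 of the 23, here in capitals, and the differences are sparser elsewhere.
Cyp2a4: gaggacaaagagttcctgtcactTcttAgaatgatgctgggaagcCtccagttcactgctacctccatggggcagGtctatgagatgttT
Cyp2a5: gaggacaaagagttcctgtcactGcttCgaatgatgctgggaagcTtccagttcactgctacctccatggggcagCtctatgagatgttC

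Of 10 members listed as female-predominant in mouse liver, 6 were tested, 1 was higher (Cyp2c40) and 2 were lower (Cyp2b9 and Cyp3a44). Over all tested liver genes 2.51% were higher and 16.9% lower. The median log2 fold change of the 6 was −1.61, against −0.175 for all genes. Of the 6, Cyp2b13 and Cyp3a44 passed the filter only through the WT livers and so could enter only as lower. The summed FPKM of the 10 was 233 and 72.1 in WT against 37.8 and 42.6 in MKRN1-null livers. Cyp2b9 alone held 149 and 49.2 of it in WT against 11.2 and 13.4 in MKRN1-null livers, and without Cyp2b9 the genotypes overlapped. Of the 4 under the filter, 3 had lower values in MKRN1-null livers and the other was at 0. Cyp3a16 had 0.387 and 0.424 FPKM in WT, about 20 and 27 read pairs, and was listed at 0 in both MKRN1-null livers. Set against a floor of 3 read pairs in each MKRN1-null library, it was at least 7.41-fold lower. Cyp3a41a, at about 9 and 13 pairs in WT and 0 in MKRN1-null livers, was at least 3.44-fold lower by the same floor, with a coding sequence 99.9% identical to that of Cyp3a41b, which was listed at 0 throughout. Such bounds cover counting error only. Xist was at most 0.00354 FPKM in the livers, all from males by the labels, and Ddx3y, on the Y chromosome, was between 11.1 and 11.7.

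**Figure D4:**
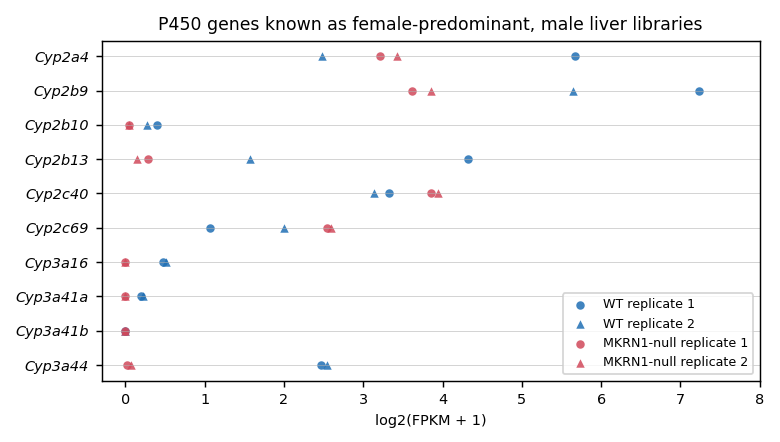
Level of the 10 members known as female-predominant in the 4 liver libraries, as log2(FPKM + 1), with 1 point per library (circles for replicate 1, triangles for replicate 2). Cyp2b9, Cyp2b13 and Cyp3a44 lie higher in WT, Cyp2c40 and Cyp2c69 higher in MKRN1-null livers, and WT replicate 1 stands far to the right for Cyp2a4.

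The Cyp2d genes, a cluster on chromosome 15 that includes abundant hepatic hydroxylases, differed less. All 8 tested had both MKRN1-null livers above both WT livers, against 11.8% of all tested liver genes. Of the 8, 3 passed as higher, against 2.51% of all tested liver genes. Of windows of the read length, 14.5% in Cyp2d10 and 11.8% in Cyp2d11 occur in another gene, and their coding sequences are 94.7% identical. The shares were 3.73% or less for Cyp2d12, Cyp2d22, Cyp2d26 and Cyp2d40, and none was available for Cyp2d13 or Cyp2d37-ps. The 8 genes may therefore not be independent readings. Cyp2d13 had 85.9 and 73.7 FPKM in WT against 140 and 161 in MKRN1-null livers (log2 fold change 0.91, SE 0.12, adjusted p = 0.0182). Cyp2d22 had 92.1 and 93.8 in WT against 119 and 122 in MKRN1-null livers (0.37, SE 0.08, adjusted p = 0.0361). The annotated pseudogene Cyp2d37-ps had 55.3 and 50.1 in WT against 73.5 in both MKRN1-null livers (0.47, SE 0.09, adjusted p = 0.0292). Without MKRN1-null replicate 2 the adjusted p of the 3 was 0.0981 to 0.192, and without replicate 1 it was 0.0509 to 0.135. Cyp2d22 was also past 0.05 without WT replicate 1 (0.0861) or WT replicate 2 (0.0654), and Cyp2d37-ps without WT replicate 2 (0.0576). Both lost the call with all 8 libraries in one fit (0.392 and 0.106).

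Cyp2d26, the second most abundant member of WT liver, had 635 and 590 FPKM in WT against 714 and 723 in MKRN1-null livers (log2 fold change 0.23, SE 0.09, adjusted p = 0.130). Cyp2d10 had 376 and 416 in WT against 474 and 501 in MKRN1-null livers (log2 fold change 0.30). The values of Cyp2d40 were 61.2 and 68.3 against 84.9 and 81.1 (0.36), those of Cyp2d11 were 12.6 and 14.6 against 14.9 and 17.3 (0.23), and those of Cyp2d12 were 3.54 and 6.93 against 8.37 and 8.52 (0.65). None of these 5 passed, though Cyp2d12 did without WT replicate 2 (0.0182). On the scale of median-of-ratios their log2 fold changes were 0.43 to 0.83, and Cyp2d26, Cyp2d10 and Cyp2d40 then passed (adjusted p of 0.0443, 0.0477 and 0.0382).

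Of the remaining liver members, Cyp2u1, a fatty acid hydroxylase, had 3.80 and 4.94 FPKM in WT against 6.81 and 8.44 in MKRN1-null livers (log2 fold change 0.69, SE 0.16, adjusted p = 0.0451). It lost the call without MKRN1-null replicate 2 (0.207), MKRN1-null replicate 1 (0.0904) or WT replicate 1 (0.109), without the filter (0.0739), with a filter at 5 FPKM (0.0515), under quantile normalization (0.0507) and with all 8 libraries in one fit (0.105). Cyp2f2, which activates naphthalene, had 376 and 566 in WT against 497 and 555 in MKRN1-null livers (0.19), with overlap. The epoxygenase Cyp2j5 was at 151 and 155 in WT against 161 and 153 in MKRN1-null livers (0.04). Cyp2j6 had 21.7 and 23.1 against 18.8 and 16.3 (−0.34, adjusted p of 0.0452 with TPM), and Cyp2j9 had 5.14 and 4.56 against 7.90 and 5.59 (0.39). Cyp2r1, a vitamin D hydroxylase, had 6.20 and 7.38 against 7.10 and 5.23 (−0.13, and 0.05 under median-of-ratios scaling). None of these 5 passed.

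The 23 members under the filter in liver reached at most 1.61 FPKM (Cyp2c39, in WT replicate 1), and 8 of them (Cyp2b19, Cyp2b23, Cyp2c65, Cyp2c66, Cyp2j11, Cyp2j12, Cyp2w1 and Cyp3a41b) were listed at 0 in all 4 livers. Cyp2g1, best known from olfactory mucosa, had about 7 and 0 read pairs in WT against 30 and 54 in MKRN1-null livers, at 0.126 and 0 FPKM in WT against 0.524 and 0.907 in MKRN1-null livers. The rest, Cyp2c53-ps, Cyp2c55, Cyp2d34, Cyp2j8, Cyp2j13, Cyp2s1, Cyp2t4 and Cyp3a57, were below 1 FPKM in every liver and were not tested.

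Genes that serve or control the P450 enzymes were read beside them, where 2.51% of all tested liver genes were called higher and 16.9% lower. Of 12 receptors and liver transcription factors, all tested in liver, 1 was higher and 0 lower. That was Hnf4a, which encodes HNF4α, at 112 and 97.5 FPKM in WT against 145 and 158 in MKRN1-null livers (log2 fold change 0.53, adjusted p = 0.0355). It was no longer called without the filter, with all 8 libraries in one fit, or with any 1 of the 4 liver libraries left out. Nr1i3, the gene of CAR, had 105 and 50.2 in WT against 97.7 and 101 in MKRN1-null livers, and Nr1i2, the gene of PXR, had 33.2 and 25.9 against 37.8 and 30.2. Ahr had 8.35 and 5.55 against 4.74 and 5.03. The most abundant of the list was Cebpa, at 169 and 167 against 201 and 203 FPKM (log2 fold change 0.26).

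Of 5 genes listed as electron donors and 9 genes of haem synthesis and breakdown, none passed in either direction by limma. The 5 count Pgrmc1, a P450-binding protein rather than an established donor. At an unadjusted p under 0.05, 3 and 4 were lower and none higher. Over all tested liver genes 34.2% were lower and 5.33% higher by that rule. Por, the reductase of all microsomal P450 enzymes, had 117 and 39.2 FPKM in WT against 163 and 179 in MKRN1-null livers (log2 fold change 1.31, adjusted p = 0.128), with a WT spread much like that of Cyp2a5. Cyb5a, the most abundant donor, had 858 and 916 against 1000 and 925 FPKM, and Pgrmc1, which binds P450 enzymes, had 538 and 595 against 491 and 437. Alas1, the first enzyme of haem synthesis, ranged from 125 to 177 in WT and from 102 to 286 in MKRN1-null livers, and Urod was at 61.5 and 63.2 against 57.5 and 56.1. Hmox1, the haem oxygenase that breaks haem down, had 22.3 and 17.3 FPKM in WT against 13.7 and 8.09 in MKRN1-null livers, which met the study thresholds as lower (log2 fold change −0.84, adjusted p = 0.0846).

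Other targets of the same receptors were counted as well, beside 2.51% of all tested liver genes called higher and 16.9% called lower. Among 5 AHR targets that are no P450, 3 were tested and 2 were lower. Nqo1, a quinone reductase, had 9.26 and 7.43 FPKM in WT against 2.73 and 2.11 in MKRN1-null livers (log2 fold change −1.45, adjusted p = 0.0137), and Ugt1a6a, a glucuronosyltransferase, had 42.5 and 43.4 against 34.2 and 32.1 (−0.36, adjusted p = 0.0416). Of 10 CAR and PXR targets, 1 was higher and 3 were lower. Ces2a, a carboxylesterase, had 46.3 and 50.7 FPKM in WT against 101 and 117 in MKRN1-null livers (1.15, adjusted p = 0.0118). Gstm3, a glutathione transferase, had 98.3 and 103 against 20.8 and 12.5 (−2.56, adjusted p = 0.0117). The retinaldehyde dehydrogenase Aldh1a1 had 796 and 936 against 589 and 509 (−0.66, adjusted p = 0.0357), and Aldh1a7 had 126 and 153 against 86.3 and 57.6 (−0.97, adjusted p = 0.0445). Of both epoxide hydrolase genes, which act on the products of the epoxygenases, Ephx1 was lower, at 305 and 323 against 186 and 150 FPKM (−0.90, adjusted p = 0.0190), and Ephx2 was at 382 and 462 against 556 and 506 (0.34).

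Some markers of cell types and zones differed by genotype as well. By limma at an adjusted p under 0.05, 2.51% of all tested liver genes were higher and 16.9% lower. Of 6 pericentral genes that are no P450, 2 were higher (Oat and Slc1a2) and 2 lower, Glul at 501 and 490 against 305 and 277 FPKM and Rhbg at 4.88 and 5.67 against 1.68 and 1.44. Of 6 periportal genes, 2 were higher (Hal and Gls2) and Hsd17b13 was lower. Of 6 hepatocyte genes, 2 were higher (Cps1 and Serpina1a) and 0 lower, and the summed FPKM of the list was 57118 and 50688 in WT against 60093 and 61374 in MKRN1-null livers. Lower calls were made for 3 of 5 stellate and fibroblast genes (summed FPKM 55.3 and 37.8 against 11.1 and 10.9) and 3 of 4 bile duct genes (9.91 and 8.18 against 3.33 and 2.41). Of 5 Kupffer cell and macrophage genes, 1 was called lower, and their sums overlapped (127 and 60.9 against 63.2 and 67.3). The stellate and fibroblast genes called were Des and the collagen genes Col1a1, at 14.0 and 9.24 against 1.8 and 1.3 FPKM, and Col3a1, at 31.3 and 21.7 against 4.83 and 4.16. The bile duct genes called were Krt19, Krt7 and Epcam, the last at 4.25 and 2.81 against 0.444 and 0.545 FPKM. The Kupffer cell and macrophage gene called was Cd68, at 15.1 and 9.54 against 4.43 and 4.82 FPKM. Adgre1 and Cd5l were lower in both MKRN1-null livers but not called. Clec4f, at 42.1 and 11.4 against 24.8 and 29.3, and Timd4, at 1.86 and 0.433 against 1.76 and 1.89, overlapped between genotypes. Of 5 adipocyte genes, 2 were tested in liver. The lipid droplet gene Cidec was lower, at 97.1 and 86.5 against 14.3 and 2.69 FPKM, and Lipe was at 8.68 and 6.58 against 8.31 and 7.37. Adipoq, Lep and Plin1 were under the filter, at 0.225 FPKM or less in every liver, so that Cidec was not read as a marker of adipocytes. None of 4 endothelial genes was called (77.0 and 47.6 against 40.3 and 51.6), with 3 lower at an unadjusted p under 0.05, the rule that 34.2% of all genes met. In bulk tissue fewer cells of a type and less RNA per cell cannot be told apart, and the part of these shifts in the levels of P450 genes was not tested.

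In subcutaneous fat the members were scarce, and 53 of the 61 stayed under 1 FPKM in all 4 libraries. Of the 8 tested, none passed the adjusted threshold by limma, nor did any of the 12164 genes tested (0%). At an unadjusted p under 0.05 there were 2 members and 785 genes. The same 2 members, Cyp2e1 and Cyp2f2, were higher at the study thresholds, where all tested genes gave 0.707% higher and 5.36% lower. Both MKRN1-null libraries lay above both WT libraries for these 2 and below them for 3 members, against 9.03% and 36.1% of all genes.

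Cyp2e1 was at 40.3 and 72.7 FPKM in WT against 451 and 278 in MKRN1-null fat, a log2 fold change of 2.69 (SE 0.44, adjusted p = 0.680). It held 50.6% and 64.1% of the members' FPKM in WT against 90.7% and 90.1% in MKRN1-null fat. Cyp2f2 had 2.35 and 1.57 FPKM in WT against 8.16 and 9.33 in MKRN1-null fat (log2 fold change 1.73, SE 0.23, adjusted p = 0.680). Neither overlapped between genotypes. Without MKRN1-null replicate 2, the library with muscle RNA, the log2 fold changes were 3.04 and 1.64 (adjusted p = 0.174 for each). Without MKRN1-null replicate 1 they were 2.34 and 1.82 (adjusted p of 0.0117 and 0.00660), and 5 further members, each lowest in replicate 2, passed as lower. In that fit, where replicate 2 was the only MKRN1-null fat library, 51.7% of all 12164 genes passed. The 6 hepatocyte genes summed to 5.73 and 6.93 FPKM in WT against 11.1 and 23.4 in MKRN1-null fat. Alb was at 2.77 and 4.52 against 8.96 and 16.5 FPKM, and Serpina1a at 2.83 and 2.26 against 1.90 and 1.87. Ttr was at 0 and 0 against 0.126 and 1.89, and Apoa1 at 0.122 and 0.155 against 0.0894 and 3.02 FPKM. Tat and Cps1 were listed at 0 in all fat libraries but MKRN1-null replicate 2, where they had 0.0733 and 0.0816 FPKM. Of the 6, 5 were highest in MKRN1-null replicate 2, and the part of liver RNA in the levels of Cyp2e1 and Cyp2f2 was not tested. Cyp2d26, Cyp3a11 and Cyp2a12, abundant in liver, were below 1 FPKM in every fat library. Of their regulators, Nr1i2 was listed at 0 in all 4 fat libraries and Hnf4a reached at most 0.0633 FPKM, whereas Ahr was at 1.3 and 1.87 against 1.08 and 0.625.

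The other 6 members of fat included Cyp1b1, which was under the filter in liver. Cyp1b1 had 5.09 and 7.24 FPKM in WT fat against 5.67 and 3.02 in MKRN1-null fat (log2 fold change −0.45). Cyp2d22 had 11.6 and 12.5 against 11.3 and 7.17 (−0.38), and Cyp2u1 had 2.60 and 2.15 against 1.75 and 1.54 (−0.35). The values of Cyp2j6 were 8.13 and 7.89 against 9.11 and 4.17 (−0.32), those of Cyp2j9 were 5.51 and 5.42 against 6.63 and 3.05 (−0.22), and those of Cyp2r1 were 1.47 and 1.43 against 1.09 and 0.271 (−0.59). MKRN1-null replicate 2 was the lowest library for all 6, and the adipocyte genes were lowest there too (3665 against 7662 to 9198 summed FPKM). The part of its muscle RNA in these values was not tested. Without that library the log2 fold changes of Cyp2j6 and Cyp2j9 were 0.17 and 0.24.

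**Figure D5:**
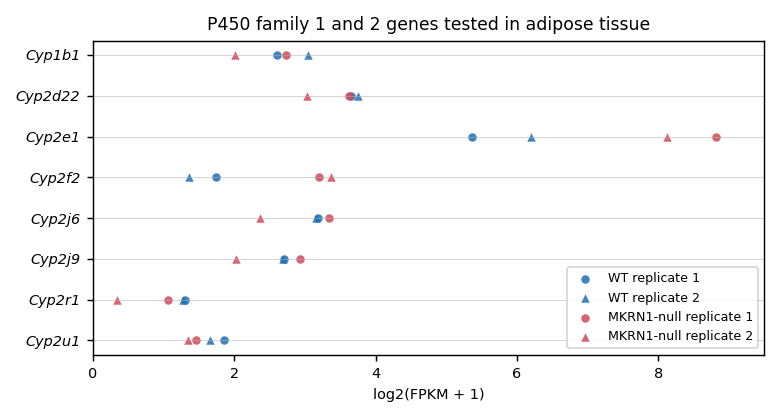
Level of the 8 members tested in subcutaneous fat in each library, as log2(FPKM + 1), with 1 point per library (circles for replicate 1, triangles for replicate 2). Cyp2e1 and Cyp2f2 lie higher in both MKRN1-null libraries, and MKRN1-null replicate 2 is the lowest point for the other 6 genes.

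Whether the MKRN1-null effect differed between the tissues was tested for the 7 members tested in both. None passed the adjusted threshold by limma, and 0% of the 9917 genes did, while 4 members and 766 genes had an unadjusted p under 0.05. For Cyp2e1 the log2 fold change was larger in fat than in liver by 1.90 (SE 0.483, adjusted p = 0.448), and for Cyp2f2 by 1.54 (SE 0.341, adjusted p = 0.415). For Cyp2u1 it was lower in fat by a difference of −1.04 (SE 0.237, adjusted p = 0.423), and for Cyp2d22 by −0.756 (SE 0.293, adjusted p = 0.614). Without MKRN1-null fat replicate 1, which left replicate 2 with its muscle RNA as the only MKRN1-null fat library, 6 of the 7 passed, and so did 26.7% of all 9917 genes. Without MKRN1-null fat replicate 2, 1 member did (Cyp2e1, adjusted p = 0.0468), beside 3.17% of all genes.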

How the data were processed

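Poly(A) RNA-seq libraries of liver and subcutaneous fat (2 WT and 2 MKRN1-null each) were used. The authors deposited 1 transcript table per library, produced on mm10 by HISAT2 alignment, SAMtools sorting and StringTie 1.3.3b per the labels and file headers, with coverage, FPKM and TPM in an attribute field of other type and no scaling between libraries. The paper describes another pipeline. FPKM was summed per gene, and 24462 of 24532 gene IDs were given symbols from RefSeq. With limma 3.58.1 (R 4.3.3), log2(FPKM + 1) was fitted per tissue over all genes with an FPKM of at least 1 in at least 2 libraries, and p was adjusted by the Benjamini-Hochberg method. Fold changes of scarce genes are understated on this scale. Read pairs were estimated from coverage with 202 aligned bases a pair. The fit was tested on simulated data. Every member that passed the filter is named with its values, with full statistics for those called in liver and the 3 most abundant, and of each pathway list the called genes and the most abundant are named. Por, Nr1i2, Nr1i3, Ahr, Hmox1, Cyp1a1, Cyp2b10 and Cyp2g1 were named for their function or reads after their values were seen. The members and lists were chosen with earlier results of these data known. One gene of the Cyp2d subfamily is not reported here. Alternatives were a pseudocount of 0.1, TPM, no filter, a filter at 5 FPKM, median-of-ratios scaling, quantile normalization, 1 fit of all 8 libraries, no variance trend, the replicate number as a block, and leaving out each library. Python 3.11.15 was used, with pandas 2.3.3 and numpy 2.4.6 for tables and matplotlib 3.10.9 for figures.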

Additional observations from a re-analysis of the deposited data

How the results depend on the processing

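Of 38 liver members, the counts called higher and lower were 15 and 4. They were 9 and 4 with all 8 libraries in one fit, and quantile normalization gave 2 lower. With single libraries left out, 0 to 14 were higher and 2 to 8 lower, and at the study thresholds 4 to 8 were lower. In such fits the lone library of a genotype is assumed to vary like the others. The replicate number as a block gave 12 higher and 6 lower, with Cyp2c38 (adjusted p = 0.0263) and Cyp3a59 (0.0178) now lower and Cyp2e1 (0.0522), Cyp2d22 (0.0761) and Cyp2d37-ps (0.0520) not called. Samples with the same number did not deviate together over the tested genes in liver (correlation 0.00666) and hardly in fat (0.113). Such a correlation cannot show whether they share more than a number. Of the receptor, electron donor and haem genes, 1 was higher and 0 lower. The count of higher genes was 3 under median-of-ratios scaling and 0 without the filter, with all libraries in one fit and with the replicate block (Hnf4a lost in each), and 0 to 2 with single libraries left out. The count of lower genes was 3 with TPM, 1 with the replicate block and up to 2 with single libraries left out, with 0 as the lowest. In fat 0 members were called, 2 with the replicate block (Cyp2e1 and Cyp2f2), and 0 to 7 with single libraries left out, where 0 to 5 were lower at the study thresholds. For the difference between tissues 0 to 6 were called with single libraries left out. With the animal that a shared number of liver and fat may mark as a replicate block, 0 were called (adjusted p of 0.636 for Cyp2e1 and 0.622 for Cyp2f2), and such libraries hardly deviated together (correlation 0.080 for WT and 0.092 for MKRN1-null). Log2 fold changes of uncalled members turned in a few fits. With single libraries left out, Cyp2a4 ran from −2.35 to 0.84, Cyp2f2 from −0.11 to 0.48, Cyp2r1 from −0.32 to 0.06 and Cyp3a25 from −0.33 to 0.07 in liver, Cyp2j6 from −0.80 to 0.17 and Cyp2j9 from −0.67 to 0.24 in fat, and the tissue difference of Cyp2j6 (0.0197) from −0.46 to 0.50. In liver Cyp2j5 was −0.03 with TPM, Cyp2r1 was 0.05 (median-of-ratios) and 0.08 (quantile), and Cyp3a25 was 0.08 (median-of-ratios). In fat Cyp2j9 was 0.03 under quantile normalization. The tissue difference of Cyp2j6 was −0.02 with a pseudocount of 0.1, −0.03 with TPM and −0.00 under median-of-ratios scaling. The cause of these changes was not tested. With 2 libraries per genotype small changes could not be detected, and members under about 1 FPKM rested on few read pairs.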
